A study of Mus musculus with 24 samples.

Results

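The comparison described here set cells that lack REV-ERBα and REV-ERBβ against control cells at hours near the trough of the transcripts of both receptors. It used 8 of the 24 libraries of the study, 4 of WT and 4 of KO cells, collected 12, 16, 36 and 40 h after dexamethasone. These are hours 12 and 16 of a 24 h cycle on 2 successive days. Both groups were mouse embryonic stem (ES) cells with a Per2::Luciferase knock-in, in which luciferase is joined to the clock protein PER2. WT cells carried no further change, and KO cells were Rev-erba/Rev-erbb deficient through the CRISPR deletion of an exon of each gene. Both were grown as embryoid bodies and then as attached cells for 28 days in all, a culture that holds many cell types, and were treated with 100 nM dexamethasone, a glucocorticoid that sets the clocks of cultured cells to a common phase. RNA of 3 embryoid bodies was pooled for a library, and each genotype has 1 library per time point. The question was which genes differ between KO and WT cells when WT cells would hold the least of these repressors.

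REV-ERBα and REV-ERBβ, the products of Nr1d1 and Nr1d2, are nuclear receptors that bind heme and repress transcription by recruiting the NCoR-HDAC3 corepressor complex. In the circadian clock they repress Arntl (Bmal1), Npas2 and other genes at response elements that they share with the activating ROR receptors. Their own genes are switched on through E-boxes by the activators ARNTL and CLOCK, so that both transcripts rise and fall once a day.

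The 4 time points were selected on the levels of Nr1d1 and Nr1d2, which are therefore given as a description with no test. Values are in RPKM, the fragments on the exons of a gene after scaling for exon length and for library depth. Nr1d1 was at 3.86, 3.58, 4.06 and 4.08 RPKM in WT and at 2.73, 2.48, 4.56 and 4.48 RPKM in KO at 12, 16, 36 and 40 h. KO values were thus below WT on the first day and above WT on the second. Nr1d2 was at 0.923, 0.895, 1.08 and 1.26 RPKM in WT and at 1.77, 1.38, 2.60 and 2.26 RPKM in KO, so that every KO library was above every WT library. At 24, 28, 48 and 52 h (hours 0 and 4 of the cycle), WT cells held 6.48 ± 0.753 RPKM of Nr1d1 (SD, n = 4) against 3.90 ± 0.230 RPKM at the 4 selected time points, and 2.68 ± 0.260 against 1.04 ± 0.166 RPKM of Nr1d2. Just outside the selection, WT Nr1d1 was at 4.14 RPKM at 20 h and 4.05 RPKM at 32 h, about the same as inside it, while WT Nr1d2 was at 1.36 and 1.95 RPKM. In KO at 20 h, Nr1d1 was at 4.00 RPKM and Nr1d2 at 1.71 RPKM, both within the range of the selected KO libraries. RPKM is taken over all exons of a gene and 1 exon of each was deleted, so these levels cannot check the deletion. The genotype of each library is taken from the labels. The paper reports frameshifts in the cDNA of the KO cells, and its quantitative PCR detected no mRNA that held the deleted exons.

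**Figure D1:**
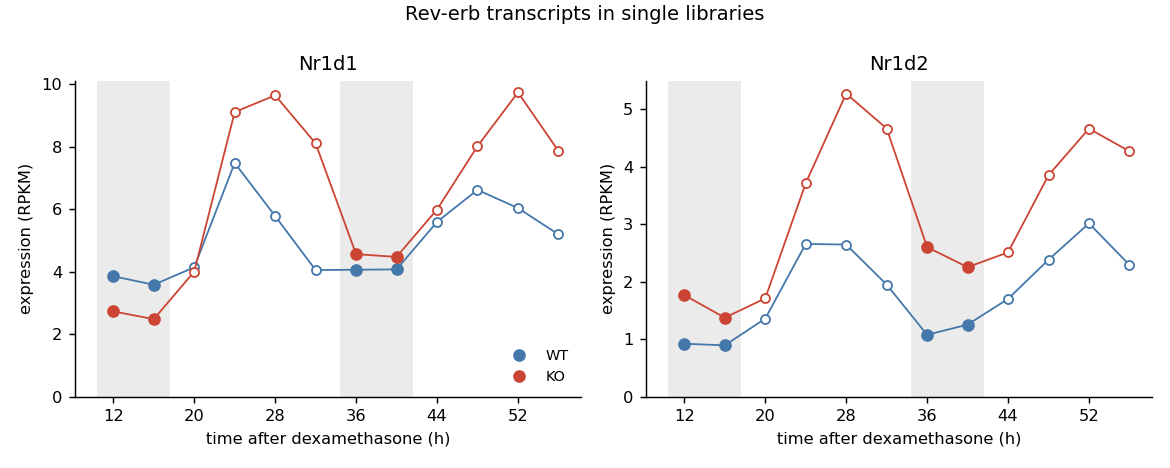
Expression of Nr1d1 and Nr1d2 in RPKM (vertical axes) against hours after dexamethasone (horizontal axes), 1 point per library, WT in blue and KO in red; filled points on grey bands are the 8 libraries compared here. In WT the filled points lie between 3.58 and 4.08 RPKM for Nr1d1 and between 0.895 and 1.26 RPKM for Nr1d2, near the lowest values of each curve.

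Genes on the opposite strand of Nr1d1 are also given without a test, because the library kit does not keep the strand and reads from overlapping exons cannot be told apart. Thra, which encodes a thyroid hormone receptor and overlaps the end of Nr1d1 (Thra, chr11:98741785-98769006; Nr1d1, chr11:98767932-98775377; GRCm38), was at 27.2, 26.0, 30.9 and 27.3 RPKM in WT and 17.8, 16.4, 18.3 and 16.4 RPKM in KO. The transcript AK053029, inside the Nr1d1 locus, was at 0.407 to 0.859 RPKM in WT and 0.690 to 1.36 RPKM in KO. Nr1d2 (chr14:18204056-18239106) overlapped no other gene of the table.

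Fragments on exons numbered 7347950 to 9092860.5 per library in WT and 6183500.5 to 7384618.5 in KO, so the KO libraries were shallower. The 28 pairs among the 8 libraries had a Pearson r of 0.957 to 0.988 over genes of at least 1 RPKM, and none stood apart. All KO libraries come from a line grown from picked colonies, so genotype and cell line cannot be told apart. Nothing in the labels says that time points came from separate differentiations, and p-values measure only the spread of the KO minus WT difference over these time points. An SD over 4 time points also holds the change over time.

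Promoters of clock genes that the results turn on are shown first, from 250 bases before to 50 after an annotated start (RefSeq, GRCm38.p6). They were searched on both strands for 2 forms of the core that REV-ERB and ROR receptors bind, TAGGTCA and TGGGTCA, and for the E-box CACGTG, and the letters found are in capitals. Arntl (chr7:113207261-113207560, plus strand) holds the receptor core 30 bases after its start. The window of its other annotated start (chr7:113207215-113207514) overlaps this one and ends before the core. Nfil3 (chr13:52980990-52981289, minus strand) holds the core on the other strand, read here as TGACCTA. Cry1 (chr10:85185005-85185304, minus strand) and Tef (chr15:81802423-81802722, plus strand) hold an E-box, and the Ciart promoter (chr3:95882179-95882478, minus strand) holds 3.
Arntl: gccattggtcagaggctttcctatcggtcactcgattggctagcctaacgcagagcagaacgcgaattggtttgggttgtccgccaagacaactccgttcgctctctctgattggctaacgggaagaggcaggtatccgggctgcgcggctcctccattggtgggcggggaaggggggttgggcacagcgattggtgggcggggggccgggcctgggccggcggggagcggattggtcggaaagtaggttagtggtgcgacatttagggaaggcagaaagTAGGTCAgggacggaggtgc
Nfil3: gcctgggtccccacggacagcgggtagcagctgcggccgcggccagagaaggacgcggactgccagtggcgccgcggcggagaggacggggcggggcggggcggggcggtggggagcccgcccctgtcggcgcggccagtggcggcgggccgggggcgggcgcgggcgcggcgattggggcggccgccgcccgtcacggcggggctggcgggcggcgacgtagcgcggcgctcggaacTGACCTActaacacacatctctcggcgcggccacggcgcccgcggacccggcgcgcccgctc
Cry1: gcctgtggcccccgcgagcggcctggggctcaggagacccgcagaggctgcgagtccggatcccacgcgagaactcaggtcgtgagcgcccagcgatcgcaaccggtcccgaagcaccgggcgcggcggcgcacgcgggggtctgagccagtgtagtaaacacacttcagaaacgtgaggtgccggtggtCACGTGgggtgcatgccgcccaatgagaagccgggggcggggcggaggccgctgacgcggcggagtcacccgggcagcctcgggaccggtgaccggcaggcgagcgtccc
Tef: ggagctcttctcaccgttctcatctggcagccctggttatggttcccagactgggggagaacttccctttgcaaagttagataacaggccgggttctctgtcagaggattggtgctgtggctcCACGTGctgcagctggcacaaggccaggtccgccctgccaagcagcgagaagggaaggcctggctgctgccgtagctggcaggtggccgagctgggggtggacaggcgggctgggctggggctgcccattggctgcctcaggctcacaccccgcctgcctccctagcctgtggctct
Ciart: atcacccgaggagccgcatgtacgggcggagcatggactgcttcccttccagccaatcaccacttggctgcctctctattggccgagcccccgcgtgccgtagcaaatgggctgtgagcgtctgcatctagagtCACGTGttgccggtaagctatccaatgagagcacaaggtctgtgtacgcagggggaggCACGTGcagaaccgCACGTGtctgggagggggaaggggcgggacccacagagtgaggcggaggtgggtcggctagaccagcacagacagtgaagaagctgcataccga
Of 32851 mouse promoters of this length, 6.45% hold at least 1 of the 2 receptor cores and 7.15% hold the E-box. In the windows found for 18 of 21 clock and target genes (24 promoters), the receptor cores were in 2 and the E-box in 6. Npas2, Clock, Dbp and Hlf matched none of these letters, which says nothing of sites outside the windows.

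Few genes passed the test at these time points. With the WT and KO library of each time point paired, 3 of 15112 expressed genes had an adjusted p under 0.05, which is 0.0199% (limma on log2(RPKM + 0.1), Benjamini-Hochberg). Grb10 and Nespas fell and Pmaip1 rose. Without adjustment, 3072 genes had p under 0.05, of which 1557 were higher in KO (10.3%) and 1515 lower (10.03%). The 4 KO libraries were all above the 4 WT libraries for 986 genes (6.52%) and all below them for 895 (5.92%). A difference of at least 2-fold was fitted for 84 genes higher and 88 lower in KO. The median difference over all genes was -0.0028 on the log2 scale, with a median SE of 0.0847.

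Grb10, an imprinted gene for an adaptor that binds the insulin and IGF1 receptors (chr11:11930499-12037420, minus strand), showed the steepest fall. WT libraries held 59.7, 52.9, 54.3 and 48.6 RPKM at 12, 16, 36 and 40 h and KO libraries 2.71, 2.35, 2.34 and 2.20 RPKM, so that the mean was 22.4-fold lower in KO. The log2 difference was -4.43 ± 0.0553 (SE, adjusted p = 4.48e-05). Nespas, an antisense transcript of the imprinted Gnas locus (chr2:174281237-174295436, minus strand), was at 1.48, 1.56, 1.86 and 1.13 RPKM in WT and 0.113, 0.146, 0.136 and 0.0966 RPKM in KO, or 60.6 and 4.00 fragments per library on average (log2 difference -2.84 ± 0.0862, adjusted p = 0.00230). KO libraries therefore rest on few fragments, and the row shares bases with a Gnas transcript on the other strand. Pmaip1, which encodes the pro-apoptotic protein NOXA (chr18:66458604-66465558, plus strand), was at 0.785, 1.03, 0.815 and 1.25 RPKM in WT and 2.44, 2.92, 2.68 and 3.09 RPKM in KO (log2 difference 1.44 ± 0.0809, adjusted p = 0.0360). The groups of all 3 genes were far apart. Grb10 passed whichever time point was left out, with an adjusted p of 0.0024 to 0.00377, whereas Pmaip1 passed in none of these fits (0.0656 to 0.215) and Nespas missed the threshold without 12 h (0.0668).

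The other genes chosen by p and by a steady direction missed the threshold narrowly. Among those higher in KO, Nppb, which encodes the natriuretic peptide BNP, was at 0.743, 1.02, 0.744 and 1.47 RPKM in WT and 1.60, 2.07, 1.54 and 2.62 RPKM in KO (adjusted p = 0.0511). Cyp7b1, a hydroxylase of oxysterols, was at 1.61, 1.94, 2.28 and 2.63 RPKM in WT and 3.32, 3.39, 4.13 and 4.85 RPKM in KO (adjusted p = 0.0551). WT and KO did not overlap for either gene. Ifi44, an interferon-induced gene, was at 0.478, 0.753, 2.23 and 1.29 RPKM in WT and 1.20, 1.54, 4.17 and 2.65 RPKM in KO, with groups that overlapped because both lines were higher on the second day, although KO was higher within each time point (adjusted p = 0.0511). Muc16, a membrane mucin, had a log2 difference of 0.77 ± 0.0609 (adjusted p = 0.0557). Tcap, the titin cap of striated muscle, had one of 2.11 ± 0.176 (adjusted p = 0.0612) on 3.12 fragments per WT library and 16.1 per KO library.

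Among those lower in KO, Itih4, which encodes a secreted protease inhibitor heavy chain, was at 3.09, 3.86, 4.23 and 5.37 RPKM in WT and 1.35, 1.88, 2.02 and 2.06 RPKM in KO (log2 difference -1.13 ± 0.0794, adjusted p = 0.0511). A Gnas row that spans chr2:174284320-174338090, one of 3 rows of this gene and the one that Nespas overlaps, was at 52.4, 52.2, 47.7 and 46.9 RPKM in WT and 20.8, 19.2, 19.1 and 23.5 RPKM in KO (log2 difference -1.27 ± 0.0904, adjusted p = 0.0511). The Gnas row with the highest level, chr2:174297859-174346742, was at 204 to 224 RPKM in WT and 154 to 169 RPKM in KO (log2 difference -0.41 ± 0.0601, adjusted p = 0.0741). Ltbp1, which binds latent TGF-β, was at 33.0 to 43.6 RPKM in WT and 18.7 to 24.1 RPKM in KO (adjusted p = 0.0557). Col8a2, a short-chain collagen, was at 16.1 to 20.2 RPKM in WT and 9.78 to 13.0 RPKM in KO (adjusted p = 0.0612). None of these groups overlapped.

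**Figure D2:**
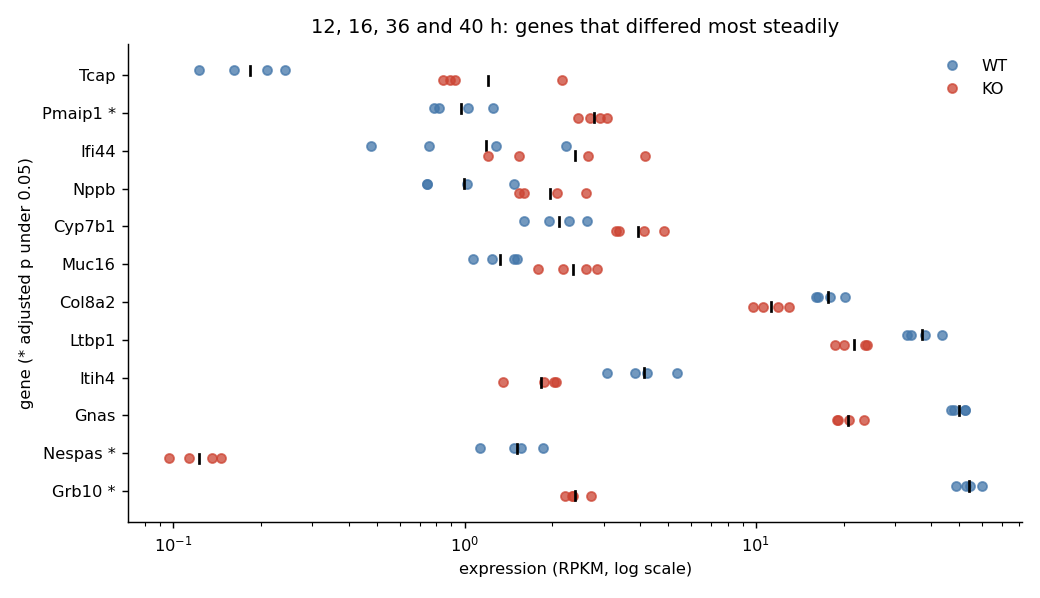
Expression in RPKM on a log axis (horizontal) of the 12 genes with the largest or most certain steady difference (vertical axis), 1 point per library, WT in blue and KO in red, with a black tick at the mean of the 4 libraries; an asterisk marks an adjusted p under 0.05. Grb10 lies near 53.8 RPKM in WT and 2.40 RPKM in KO, and of the 12 genes Ifi44 is the one whose groups overlap.

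Of the activators of the clock, Arntl and Npas2 exceeded WT in KO cells at all 4 hours, but neither passed the test here. In the 16 libraries of the other time points both passed, with log2 differences of 0.51 and 0.75 (limma, adjusted p = 0.00279 and 0.00392). The Arntl row (chr7:113207465-113314126) begins at the other annotated start, a little before that of the promoter shown above. The receptor core lies beyond the end of the window of that start and within the span of the row. Arntl was at 4.64, 4.05, 3.92 and 3.96 RPKM in WT and 5.61, 4.46, 4.67 and 4.56 RPKM in KO. The groups overlapped, since WT at 12 h was above KO at 16 h and 40 h, and the log2 difference was 0.21 ± 0.0581 (adjusted p = 0.147). Npas2 (chr1:39194272-39363240), a paralogue of Clock, was at 3.43, 3.12, 2.64 and 3.34 RPKM in WT and 4.30, 3.89, 4.05 and 3.95 RPKM in KO, without overlap (log2 difference 0.36 ± 0.0811, adjusted p = 0.109). Arntl2, a lowly expressed paralogue of Arntl, was higher at 3 time points, at 0.288 to 0.455 RPKM in WT and 0.393 to 0.847 RPKM in KO. Clock differed by -0.11 ± 0.0946 on the log2 scale and was lower at 3.

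The repressors had differences of either sign, and none passed the test. Per2 (chr1:91415982-91459328), the gene that carries the luciferase in both lines, was at 4.89, 2.69, 3.62 and 1.87 RPKM in WT and 3.92, 2.00, 2.5 and 1.48 RPKM in KO. It was lower in KO within each time point, on top of a change with time that was larger than the difference between the lines (log2 difference -0.39 ± 0.0654, adjusted p = 0.0837). Per1 was at 15.7 to 19.5 RPKM in WT and 14.4 to 17.6 RPKM in KO, lower at 4 of 4 time points (adjusted p = 0.229). Per3, Cry1 and Cry2 differed by -0.02 ± 0.117, 0.10 ± 0.0770 and -0.07 ± 0.0877 on the log2 scale. Cry1, a repressor of ARNTL and CLOCK known as a REV-ERB target, was at 5.92, 4.41, 5.33 and 4.30 RPKM in WT and 7.04, 4.45, 6.13 and 4.12 RPKM in KO. Rora, which encodes an activator at the REV-ERB response element, was at 1.17 to 1.40 RPKM in WT and 1.15 to 1.52 RPKM in KO.

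Among the factors that bind D-boxes, the activators Tef and Hlf had lower values in KO at all 4 time points. Tef (chr15:81802673-81826863) was at 8.04, 5.99, 6.98 and 4.87 RPKM in WT and 6.54, 3.58, 5.60 and 3.50 RPKM in KO (log2 difference -0.45 ± 0.0931, adjusted p = 0.104), and in both lines it was higher at hour 12 than at hour 16 of the cycle. Hlf was at 1.67, 0.908, 1.36 and 0.987 RPKM in WT and 1.40, 0.783, 1.1 and 0.842 RPKM in KO (adjusted p = 0.125). Dbp, the third activator, was at 2.5, 2.06, 2.64 and 1.80 RPKM in WT and 2.82, 1.71, 3.65 and 2.52 RPKM in KO, higher in KO at 3 time points and lower at 16 h (adjusted p = 0.449). Nfil3, the repressor at the same element, was at 12.6, 12.9, 14.7 and 16.1 RPKM in WT and 16.6, 14.6, 16.0 and 16.6 RPKM in KO (adjusted p = 0.265).

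Of the E-box genes, Bhlhe40 (DEC1), a repressor that competes for E-boxes, was at 12.0, 13.5, 14.8 and 14.2 RPKM in WT and 17.0, 14.4, 17.96 and 18.9 RPKM in KO (log2 difference 0.32 ± 0.0871, adjusted p = 0.145). Ciart, a repressor of ARNTL and CLOCK whose E-boxes are shown above, was at 0.582 to 0.661 RPKM in WT and 0.655 to 0.994 RPKM in KO on 15.4 and 17.2 fragments per library (adjusted p = 0.116), and it overlaps another row of the table on the other strand. In both genes KO exceeded WT at 4 of 4 time points. Bhlhe41, Noct and Usp2 differed by 0.13 ± 0.206, 0.12 ± 0.0927 and -0.08 ± 0.0896 on the log2 scale.

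**Figure D3:**
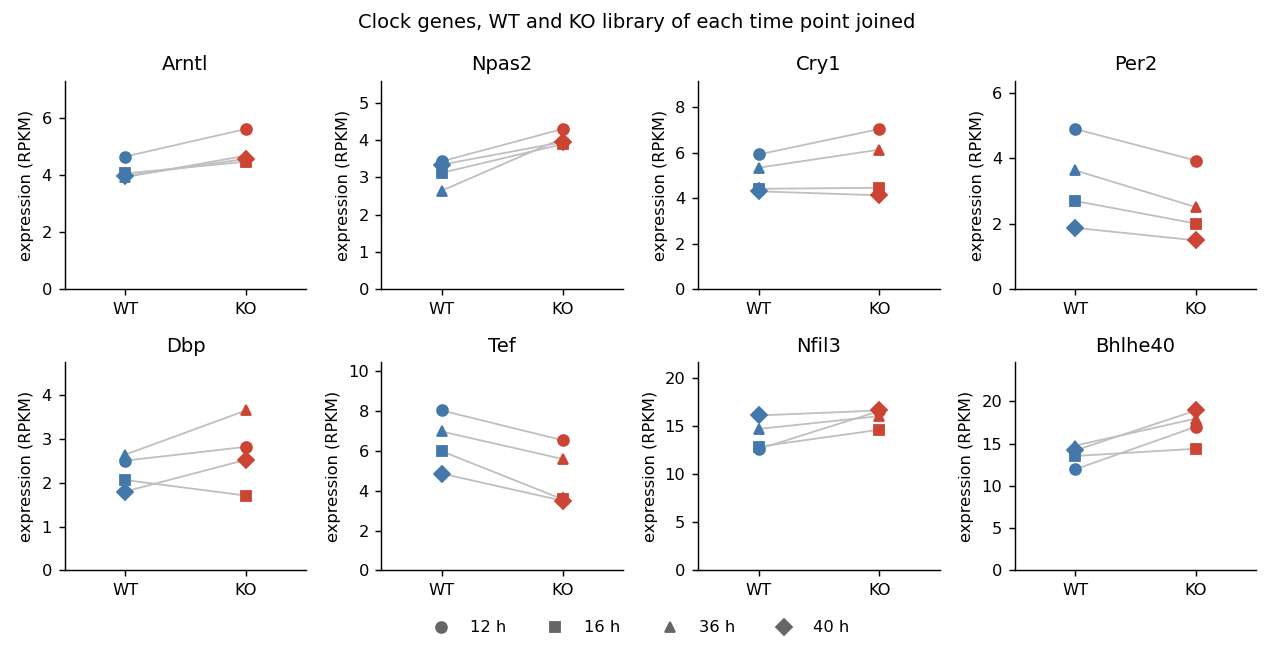
Expression in RPKM (vertical axes, from 0) of 8 clock genes in WT (blue) and KO (red) at the 4 time points; each grey line joins the WT and KO library of the same hour and the symbol gives the hour. Npas2 has no overlap between the lines, while the lines of Per2 and Tef all slope down but span a wider range over time than between the lines.

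The effect of the knockout at these hours was set against that at hours 0 and 4 of the cycle, when Nr1d1 and Nr1d2 transcripts were high, by testing the difference of the effects in a model of all 24 libraries. No gene passed (0% of 15112 genes, smallest adjusted p = 0.688, limma). Without adjustment 532 genes had p under 0.05, of which the effect was higher at hours 12 and 16 for 234 (1.55%) and lower for 298 (1.97%), so the statements that follow are values and not calls. For Arntl the log2 difference between KO and WT was 0.21 ± 0.0581 at the low hours and 0.57 ± 0.0755 at the high ones, with a difference of -0.36 ± 0.109. In WT, Arntl was at 4.14 ± 0.337 RPKM at the low hours and 3.09 ± 0.197 at the high ones (SD, n = 4), while KO cells held 4.83 ± 0.528 and 4.65 ± 0.438. For Npas2 the effects were 0.36 ± 0.0811 and 0.84 ± 0.0941. For Cry1 they were 0.10 ± 0.0770 and 0.34 ± 0.0467, and for Dbp 0.21 ± 0.140 and 0.79 ± 0.122. These 4 genes were thus closer to WT when Rev-erb transcripts were low, with unadjusted limma p of 0.00704, 0.0272, 0.0136 and 0.0270 for the difference.

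Tef differed in the other way, with an effect of -0.45 ± 0.0931 at the low hours and -0.02 ± 0.0467 at the high hours, so that the lines were near each other when Rev-erb transcripts were high. Per2 had nearly the same effect at both (-0.39 ± 0.0654 and -0.39 ± 0.0641), as did Bhlhe40 (0.32 ± 0.0871 and 0.33 ± 0.0700) and Cdkn1a (0.23 ± 0.0701 and 0.17 ± 0.0580). The SE of these differences, 0.0868 to 0.122, leaves room for a change of that size.

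**Figure D4:**
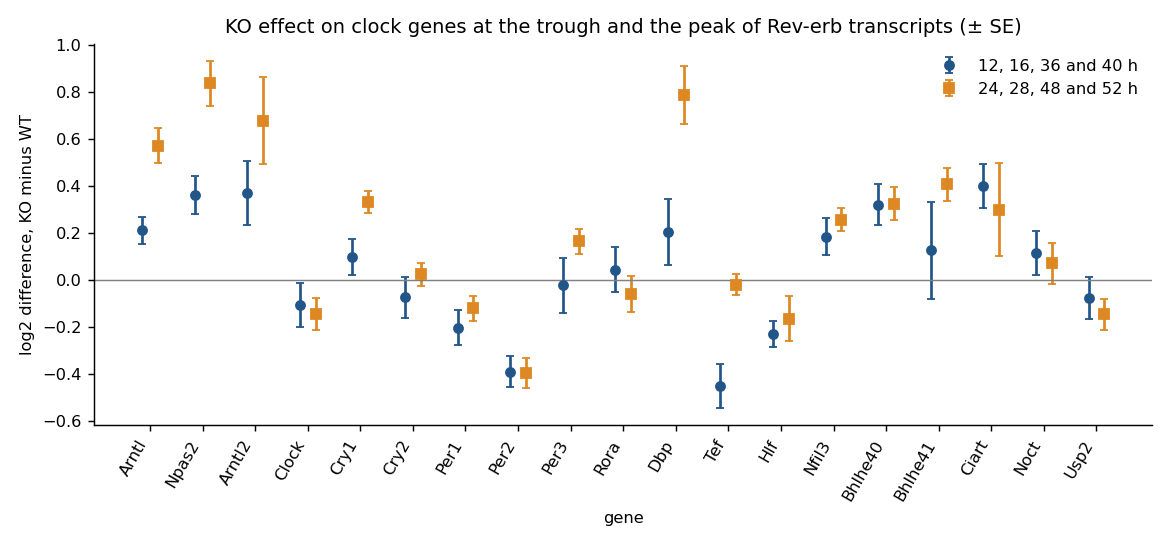
Log2 difference between KO and WT (vertical axis) with its SE for 19 clock genes (horizontal axis) at 12, 16, 36 and 40 h (blue circles) and at 24, 28, 48 and 52 h (orange squares), 4 libraries per line each. The blue points of Arntl, Npas2, Cry1 and Dbp lie nearer to 0 than the orange points, and that of Tef lies farther, at -0.45.

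The genes with the smallest p for this difference were mostly no clock genes. Gtf2f2, a subunit of the transcription factor TFIIF, was at 3.66, 3.57, 3.84 and 3.38 RPKM in WT and 5.06, 5.20, 5.38 and 4.92 RPKM in KO, with an effect of 0.50 ± 0.0555 at the low hours and 0.0092 ± 0.0698 at the high ones. Ddx10, an RNA helicase, had effects of 0.35 ± 0.0700 and -0.07 ± 0.0755, and Elovl7, a fatty acid elongase, of 0.31 ± 0.0767 and -0.06 ± 0.0609. For these 3 genes the WT and KO libraries did not overlap at the low hours, and 6.52% of all genes were likewise higher in every KO library. Their selection by a higher effect at these hours favours such a separation. Idi2, an isopentenyl diphosphate isomerase, differed by -0.18 ± 0.0972 at the low hours and by -1.55 ± 0.162 at the high hours. Abi3bp, Slc25a35 and Smco4 went from -0.14 ± 0.0741, -0.22 ± 0.0925 and -0.05 ± 0.0764 at the low hours to 0.41 ± 0.0941, 0.25 ± 0.0540 and 0.40 ± 0.0823 at the high ones, and Tef completed the 4 in this direction.

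Genes known as repressed by REV-ERB in other tissues lay on both sides of 0. Of 20 listed, 19 were expressed, none passed the test, and 12 had higher and 7 lower values in KO, with a median log2 difference of 0.08 against -0.0028 for all genes. Unadjusted p was under 0.05 for 5, all higher, where 10.3% of all genes were, and the KO libraries were all above the WT libraries for Npas2, Cdkn1a and Lpl, as for 6.52% of all genes. Cdkn1a, which encodes the cell-cycle inhibitor p21, was at 110, 107, 93.0 and 103 RPKM in WT and 120, 117, 119 and 127 RPKM in KO (adjusted p = 0.175). Lpl, lipoprotein lipase, was at 119 to 142 RPKM in WT and 148 to 163 RPKM in KO (adjusted p = 0.0996). In the other 16 libraries the median of the list was 0.20 and 8 of its genes were higher at an adjusted p under 0.05, where 5.64% of all genes were.

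The machinery around the receptors showed little difference. The 6 genes of the NCoR-HDAC3 corepressor had log2 differences of -0.14 to 0.11, the 9 genes of clock kinases and ubiquitin ligases of -0.08 to 0.14, and the 12 expressed genes of heme synthesis and breakdown of -0.17 to 0.14. None of them had an unadjusted p under 0.05. Hdac3 was at 14.2 to 15.7 RPKM in WT and 14.4 to 16.3 RPKM in KO.

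Of 12 genes around the glucocorticoid receptor, 10 had lower values in KO and 7 of these an unadjusted p under 0.05, against 10.03% of all genes, with a median log2 difference of -0.20. In the other 16 libraries 3 of the 12 were lower at an adjusted p under 0.05 (7.56% of all genes). Zbtb16, a transcription factor induced by glucocorticoids, was at 9.53, 7.86, 8.26 and 8.38 RPKM in WT and 7.29, 7.08, 6.40 and 6.47 RPKM in KO, without overlap (adjusted p = 0.107). The metallothionein genes Mt1 and Mt2 were at 450 to 648 and 504 to 701 RPKM in WT and 422 to 485 and 458 to 529 RPKM in KO. Sgk1, Pdk4, Klf9 and Per1 also had lower values, whereas Errfi1, a feedback inhibitor of EGF receptor signalling, was higher at 4 of 4 time points (0.24 ± 0.0751). Nr3c1, the receptor itself, differed by -0.06 ± 0.0813.

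Of 17 genes of sterol and fatty acid synthesis, 13 had higher and 4 lower values in KO, with a median of 0.15. Unadjusted limma p was under 0.05 for 5, all higher, against 10.3% of all genes. In the other 16 libraries the median was 0.10, and 4 of the 17 were higher at an adjusted p under 0.05 (5.64% of all genes). Scd1, a stearoyl-CoA desaturase, was at 5.62, 7.25, 6.51 and 6.09 RPKM in WT and 8.35, 8.88, 9.47 and 8.76 RPKM in KO (log2 difference 0.48 ± 0.0719, adjusted p = 0.0761), and Scd2 likewise did not overlap (69.3 to 83.8 RPKM in WT and 87.0 to 96.3 RPKM in KO). They were the 2 of the 17 genes that were higher in every KO library, against 6.52% of all genes.

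All 12 proliferation genes had higher values in KO, with a median log2 difference of 0.34, and 10 had an unadjusted p under 0.05, against 10.3% of all genes, but none passed the test and none separated the groups. In the other 16 libraries their median was 0.28, and 1 of the 12 was higher at an adjusted p under 0.05 (5.64% of all genes). Plk1, a mitotic kinase, was at 2.49, 2.16, 1.23 and 1.38 RPKM in WT and 3.40, 3.12, 2.41 and 2.20 RPKM in KO (adjusted p = 0.0776). Rrm2, a subunit of ribonucleotide reductase, was at 8.0, 7.93, 6.19 and 6.46 RPKM in WT and 11.6, 10.2, 7.68 and 8.52 RPKM in KO (adjusted p = 0.0810). Both lines were lower on the second day. The early response and stress genes had a median of 0.17, and among them Hspa1b, a heat shock protein, was at 5.24 to 6.50 RPKM in WT and 7.03 to 8.35 RPKM in KO. Of these 10 genes, 3 were higher in every KO library, against 6.52% of all genes. In the other 16 libraries 1 of the 10 was higher and 3 were lower at an adjusted p under 0.05 by limma (5.64% and 7.56% of all genes).

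Markers of some cell types had unlike levels in WT and KO, although none passed the test, and in bulk RNA fewer cells of a type and less RNA per cell cannot be told apart. Epithelial markers were higher in KO for 6 of 6 genes, with summed levels of 401 to 593 RPKM in WT and 775 to 1205 RPKM in KO and none at 0. Krt5 was at 129, 159, 134 and 179 RPKM in WT and 286, 245, 245 and 401 RPKM in KO (log2 difference 0.95 ± 0.111, adjusted p = 0.0642), Krt14 differed by 1.09 ± 0.140 and Cdh1, E-cadherin, by 0.84 ± 0.128. Krt5, Krt14, Krt8 and Cdh1 did not overlap between the lines, and 6.52% of all genes were likewise higher in every KO library. Muc16 is also made by epithelia, and the part of epithelial cells in its difference was not tested.

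Of 7 heart and striated muscle markers, 6 were higher in KO, with summed levels of 47.8 to 82.9 RPKM in WT and 70.8 to 116 RPKM in KO. Myl2, a ventricular myosin light chain, was at 1.48, 5.04, 2.72 and 3.43 RPKM in WT and 11.1, 11.2, 7.94 and 16.6 RPKM in KO (log2 difference 1.93 ± 0.291, adjusted p = 0.0755). Actc1, cardiac actin, differed by 1.51 ± 0.308 and Myh7 by 1.12 ± 0.248. The groups of all 3 were apart, and 6.52% of all genes were likewise higher in every KO library. Tnnt2, cardiac troponin T, went the other way, at 35.3 to 51.1 RPKM in WT and 30.2 to 43.6 RPKM in KO. Unadjusted limma p was under 0.05 for Tnnt2 and for 4 of the 6 higher genes, against 10.03% of all genes lower and 10.3% higher. Nppb and Tcap, named above, are genes of the same muscle, and the part of muscle cells in their differences was not tested.

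Neural, endoderm and pluripotency markers varied more between time points than between lines. The 7 expressed neural markers were all lower in KO on average (median -0.74), but their summed level ran from 7.17 to 36.4 RPKM in WT and from 6.42 to 14.2 RPKM in KO. In the other 16 libraries their median was -0.92, and 2 of the 7 were lower at an adjusted p under 0.05 by limma (7.56% of all genes). Tubb3, a neuronal tubulin, was at 11.2, 3.83, 21.7 and 3.65 RPKM in WT and 6.66, 7.78, 2.5 and 3.18 RPKM in KO, with the highest values in WT at 12 and 36 h. Afp, made by yolk sac and fetal liver, spanned 20.8 to 727 RPKM in WT and 16.6 to 686 RPKM in KO. Pluripotency markers summed to 2.32 to 8.55 RPKM in WT and 1.34 to 5.92 RPKM in KO. Macrophage markers were at similar sums in both (81.5 to 93.5 and 83.8 to 94.2 RPKM). Endothelial markers summed to 7.93 to 18.6 RPKM in WT and 12.2 to 17.3 RPKM in KO, and smooth muscle markers to 248 to 328 and 288 to 340 RPKM. Collagens and matrix genes summed to 5800 to 6093 and 5863 to 6791 RPKM. Values were higher in KO for 4 of 5 endothelial, 6 of 6 smooth muscle and 10 of 13 matrix genes. Unadjusted limma p was under 0.05 for 3, 1 and 1 of these, against 10.3% of all genes. In the other 16 libraries 3, 3 and 4 genes of these lists and 2 of 5 macrophage markers were higher at an adjusted p under 0.05 (5.64% of all genes). The 5 erythroid genes found in the table summed to at most 10.5 RPKM.

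**Figure D5:**
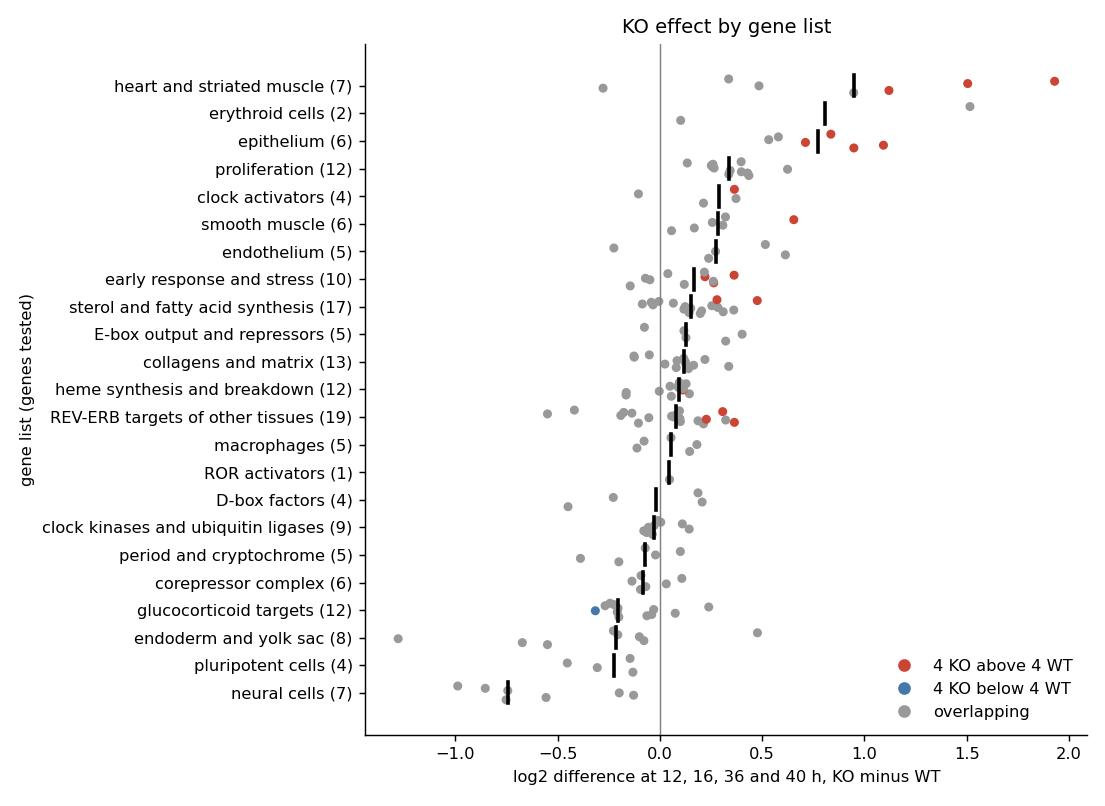
Log2 difference between KO and WT at 12, 16, 36 and 40 h (horizontal axis) for each expressed gene of 23 lists (vertical axis, with the number tested), with a black bar at the median of the list. Red points are genes whose 4 KO libraries all lie above the 4 WT libraries, blue those below and grey those that overlap; epithelial and heart markers lie to the right, with medians of 0.77 and 0.95, and neural markers to the left.

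The differences at these hours were set against those in the other 16 libraries, which share no library with them but come from the same lines. There, 853 genes were higher (5.64%) and 1142 lower (7.56%) in KO at an adjusted p under 0.05. This balance turned under other scalings, with 1017 higher and 917 lower by median-ratio scaling and 957 and 876 by quantile normalization. Of the 853, 835 (97.9%) also had a higher mean at the low hours, with a median log2 difference of 0.37 there and 0.39 in the other libraries, and of the 1142, 1100 (96.3%) had a lower one, with medians of -0.30 and -0.31. Over all genes 75.6% had the same sign in both. In the other direction, of the 1557 genes higher at the low hours by unadjusted p, 532 (34.2%) passed in the other libraries in the same direction, and of the 1515 lower genes 604 (39.9%). Grb10, Nespas and Pmaip1 passed in both, with log2 differences of -4.50, -2.97 and 1.46 in the other libraries. Of the genes that came next in order of p at the low hours, Muc16 and Itih4 also missed the threshold in the other libraries (0.20, adjusted p = 0.0841, and -0.64, adjusted p = 0.0586). Gtf2f2, Ddx10 and Elovl7 did not pass there (0.02, -0.03 and 0.04). These genes were chosen by their difference from hours 0 and 4 of the cycle, whose libraries are among the 16. Their small effects there are therefore no separate result.

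When the effect at the low hours was estimated with the spread of all 24 libraries, which leaves each difference as it is and changes its error, 472 genes were higher (3.12%) and 515 lower (3.41%) in KO. By this fit, Gnas (1 of its rows, adjusted p = 5.25e-06), Ltbp1, Col8a2, Itih4, Tcap, Muc16, Cyp7b1, Nppb and Ifi44 passed, with an adjusted p of at most 0.0262. So did Scd1 (0.00167), Tef (0.0108), Per2 (0.0144), Rrm2 (0.0250) and Bhlhe40 (0.0499), whereas Arntl (0.117) and Npas2 (0.117) did not. Rrm2 was the 1 of the 12 proliferation genes that passed. This fit takes its error from the spread of the KO minus WT difference over all 12 time points, and it is among the alternatives of the closing section.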

How the data were processed

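RNA was sequenced in 24 libraries as 101-bp read pairs, and 8 of them are compared here. The authors trimmed reads with Trimmomatic 0.36, mapped them to GRCm38 (mm10) with STAR 2.5.4b, discarded alignments of low mapping quality, counted reads on exons of UCSC known canonical genes with HOMER and deposited RPKM for 33079 genes. Whether the counting took strand into account is not given in the sources used here. Converted back with the exonic lengths and the totals in the header, 100% of values were within 0.01 of a multiple of 0.5 fragment, and these fragments served for depth alone.

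Expressed genes (15112, those whose average in WT or in KO exceeded 0.5 RPM) were tested on log2(RPKM + 0.1) by limma 3.58.1 (R 4.3.3), with the time point as a block and Benjamini-Hochberg adjustment over all of them. This scale understates the change of low genes. Deviations from the group means correlated between the WT and KO library of a time point by 0.392 (12 h), 0.199 (16 h), 0.0747 (36 h) and 0.534 (40 h), and in the 12 other pairs by -0.424 to 0.207. Fits were tested on simulated data.

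The time points, gene lists and tests were chosen with earlier results of these data known. Named genes are Nr1d1, Nr1d2 and their opposite-strand transcripts, members of the lists, genes with an adjusted p under 0.05, a level of 1 RPKM or more in either line and the same sign at all 4 time points (at most 12 in a direction, filled to 6 by the smallest p), and the 4 genes in each direction with the smallest p for the difference between hours. Alternatives covered pseudocount, filter, block, scaling, error model, libraries and left-out time points. Some genes are not reported here.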

Additional observations from a re-analysis of the deposited data

Results flagged for a closer look

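Of the 40 genes examined for a library far from the other 3 of its group (80 groups of 4, in which chance gives about 1 in 20), 2 had such a library by Dixon's criterion. Tcap was at 2.15 RPKM in KO at 40 h, where the other KO libraries lay between 0.843 and 0.929 RPKM. Slc25a35 was at 1.08 RPKM in KO at 36 h, where the others lay between 0.784 and 0.823 RPKM. No gene had a difference of the KO effect between hours that passed the adjusted threshold.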

How the results depend on the processing

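The count of genes that passed at 12, 16, 36 and 40 h (3 by the reported fit) depended on the fit. It was 371 with a pseudocount of 1 (220 higher, 151 lower), 113 among genes of at least 1 RPKM, 193 with no replicate block (108 higher, 85 lower), 13 with quantile normalization (8 higher, 5 lower, against 1 and 2), 537 with an error that follows the mean level (limma-trend) and 987 with all 24 libraries in 1 fit. Without the block fewer genes had an unadjusted p under 0.05 (2809 against 3072), and the adjusted p of Per2 was 0.588 (0.0837 with it) and that of Ifi44 0.334 (0.0511). The first day alone and the second day alone gave 0 each by limma, with 1429 and 2034 genes at an unadjusted p under 0.05. Leaving out a time point gave 1 (without 12 h) to 2. The difference between hours gave 0 in the reported fit and each of its alternatives, with 347 to 882 genes at an unadjusted p under 0.05. The count in the other 16 libraries (1995) stayed within 1.5 times except with hours 0 and 4 of the cycle alone (49), but its balance turned from 853 higher and 1142 lower to 1017 and 917 by median-ratio scaling and 957 and 876 by quantile normalization. Of 598 fitted differences of 40 named genes under 15 alternatives, 597 kept their sign. Much of this was fixed beforehand. The alternatives of filter, block, error model and all 24 libraries leave each difference as it is. Some of the genes were also chosen for the same sign at all 4 time points. Smco4 ranged from -0.10 to 0.0056 with a time point left out. Other than where samples or degrees of freedom were fewer, the cause was not tested. With 1 library per time point, low genes such as Nespas in KO and Tcap in WT rest on few fragments.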

Other observations

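The gene lists in this paragraph were chosen after values were seen, so their counts are descriptions. Of 31 interferon-induced genes, 28 had higher values in KO at the 4 low hours, with a median log2 difference of 0.60, and 25 had an unadjusted p under 0.05 and a higher level, against 10.3% of all genes. The groups overlapped for all but Epsti1 and Ifih1, and most values of both lines were higher on the second day. Isg15, a ubiquitin-like protein, was at 1.65, 2.60, 8.32 and 5.44 RPKM in WT and 4.27, 3.40, 13.7 and 10.8 RPKM in KO at 12, 16, 36 and 40 h. In the other 16 libraries their median was 0.77, and 27 of the 31 were higher at an adjusted p under 0.05 (5.64% of all genes). The KO minus WT difference was lower at these hours than at hours 0 and 4 of the cycle for 30 of the 31, with a median of -0.37 over the list. Unadjusted limma p was under 0.05 for 13 of them, against 1.97% of all genes, and none passed the adjusted threshold. Rsad2, an antiviral enzyme, changed sign, at -0.53 ± 0.244 and 0.93 ± 0.115.

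Of 16 genes of stratified epithelium, all had higher values in KO and 14 separated the lines, against 6.52% of all genes, with a median of 0.98 at the low hours and 0.51 in the other 16 libraries. Krt6a, a keratin of activated epidermis, was at 65.5 to 93.0 RPKM in WT and 154 to 223 RPKM in KO, and Serpinb2 at 2.16 to 2.67 and 4.77 to 6.73 RPKM. Of 23 imprinted genes, 14 had lower and 9 higher values in KO, with a median of -0.11. Besides Grb10 and Nespas, Dlk1, an imprinted membrane protein, was at 155, 134, 118 and 90.6 RPKM in WT and 91.0, 89.9, 74.3 and 59.9 RPKM in KO, while Igf2 was at 2981 to 3395 and 2918 to 3639 RPKM.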
